A study of Saccharomyces cerevisiae with 268 samples.

Results

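The heat shock chaperone genes described here are 10 genes of budding yeast, Saccharomyces cerevisiae. They were followed across strains each labelled as a deletion of 1 transcription factor or related regulator. They were taken by systematic name from the authors' deposited value table: SSA1 (YAL005C), SSA2 (YLL024C), SSA3 (YBL075C), SSA4 (YER103W), HSP82 (YPL240C), HSC82 (YMR186W), HSP104 (YLL026W), HSP78 (YDR258C), HSP26 (YBR072W) and HSP42 (YDR171W). The table held 6419 features, and all 10 genes were among them. Of the 5615 genes tested, 9 were chaperone genes; HSP26 had a value in only 75% of the columns and was described but not tested.

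Chaperones bind unfolded proteins and help them fold, keep them soluble or pull them out of aggregates. In yeast, the Hsp70 proteins of the Ssa family and the Hsp90 proteins Hsp82 and Hsc82 carry the general folding work of the cytosol, Hsp104 disaggregates proteins together with Hsp70, and Hsp42 and Hsp26 are small heat shock proteins that sequester unfolded ones. Transcription of these genes rests on the heat shock factor Hsf1, which binds heat shock elements in their promoters and keeps several of them expressed without stress, and, for part of them, on the general stress factors Msn2 and Msn4, which bind stress response elements.

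On 2-colour arrays, Cy5 marked total RNA from a mid-log culture of the deletion strain and Cy3 that from a mid-log culture of wild type. Each sample was labelled as a different single deletion, so no deletion had a replicate, and all strains were set against wild type. That label also stands on the essential regulators RAP1, REB1, ABF1, HSF1 and MCM1, where it alone does not show what the strain carried. The strain background, medium, number of arrays behind a column, probe positions and any batch were not stated in the sources used here, and a pair as alike as SSA1 and SSA2 or HSP82 and HSC82 may share signal, which was not tested. The deposited values are given as scores, deletion over wild type, with no stated scale, log base or centring: a negative score is read as less RNA in the deletion strain, and no score is turned into a fold change.

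The groups were made from the deleted gene named in the labels. They were the Mediator tail strains (SIN4, GAL11, PGD1 and NUT1, n = 4), the Mediator kinase strains (SSN3, SRB8 and SSN2, n = 3), the SWI/SNF nucleosome remodeller strains (SWI3, SNF5, SNF2, SNF6 and SNF11, n = 5), the SAGA coactivator strains (ADA2, NGG1, SPT3, SPT20 and HFI1, n = 5), the Rpd3 histone deacetylase strains (RPD3, SIN3, UME1, PHO23 and SDS3, n = 5), the Ccr4-Not strains (POP2, MOT2 and NOT3, n = 3), the MSN2 and MSN4 strains (n = 2), HSF1 alone, TUP1 alone, and all remaining strains, called the other strains below. Strains of a set differ in genotype, so every p-value below measures the spread between different deletions, and the spread of wild type itself was not part of any test.

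Several columns stood apart from their labels. The score of the deleted gene lay in the lowest 5% of that gene's values in 61.6% of the 263 columns that gave one, and in the highest 20% in 14 columns, among them the columns labelled NGG1, SPT3, SPT20, SSN3, RPD3 and MCM1. In the column labelled HSF1 the HSF1 score was -0.84, at percentile 10.9 of its values, and in the column labelled SIN4 the SIN4 score was 0.03, at percentile 24.3, so neither shows loss of its own transcript. Mating type or auxotrophy markers set 38 columns apart, including 4 of the 5 SWI/SNF columns (all but SNF11), 3 of the 5 SAGA columns (SPT3, SPT20 and HFI1), HSF1 and TUP1. In 15 columns a whole chromosome was shifted, SWI3, SNF6 and SPT20 among them.

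The chaperone genes differed widely in how far they moved from strain to strain. HSP104 was the most variable, with a lowest score of -5.96, a median of -0.04 and a highest of 6.50 (SD 1.96, n = 265), and its SD lay at percentile 99 of all genes tested. HSP42 ran between -4.52 and 6.25 around a median of -0.90 (SD 1.53, n = 267, percentile 97.1). The disaggregase gene and the small heat shock protein gene were thus among the most variable genes of the table.

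The Hsp90 genes had negative scores in most strains. HSP82, the more heat-inducible of the pair, had a lowest score of -5.85, a median of -1.71 and a highest of 1.99 (SD 0.93, all columns), and was below -1 in 84.3% of them. HSC82, the more constitutive one, ran from -5.55 over a median of -1.30 to 1.67 (SD 0.96, all columns), and was below -1 in 63.8% of them. Only 4 genes tested had a median below that of HSP82, and 3.17% of genes tested had a median below -1. Cy5 marked the deletion strain and Cy3 wild type, and whether a dye or reference offset adds to this level was not tested. Since so many unrelated deletions share this level, each gene is also read below against its own median over all strains.

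Among the Hsp70 genes, SSA2, which is expressed constitutively, ran from -5.86 over a median of -0.60 to 1.83 (SD 1.15, all columns). SSA1 ran from -3.19 over 0.08 to 2.55 (SD 1.03, all columns). The stress-induced SSA4 ran from -2.95 over 0.41 to 3.28 (SD 0.89, n = 264). The stress-induced SSA3 stayed closer to wild type, from -2.99 over 0.05 to 1.58 (SD 0.57, n = 266), at percentile 18.6 of SD. Ranges of all 4 overlapped.

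HSP78, which codes for the mitochondrial relative of Hsp104, was the least variable chaperone gene, from -1.46 over 0.13 to 2.17 (SD 0.51, n = 266, percentile 5.97). HSP26, the other small heat shock protein gene, ran from -1.13 over 0.38 to 2.64 (SD 0.64). In order of the median score, from low to high, the genes were HSP82, HSC82, HSP42, SSA2, HSP104, SSA3, SSA1, HSP78, HSP26 and SSA4. The interquartile range of each gene overlapped that of its neighbour in this order: that of HSP82 reached from -2.28 to -1.33 and that of HSC82 from -1.86 to -0.80.

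**Figure D1:**
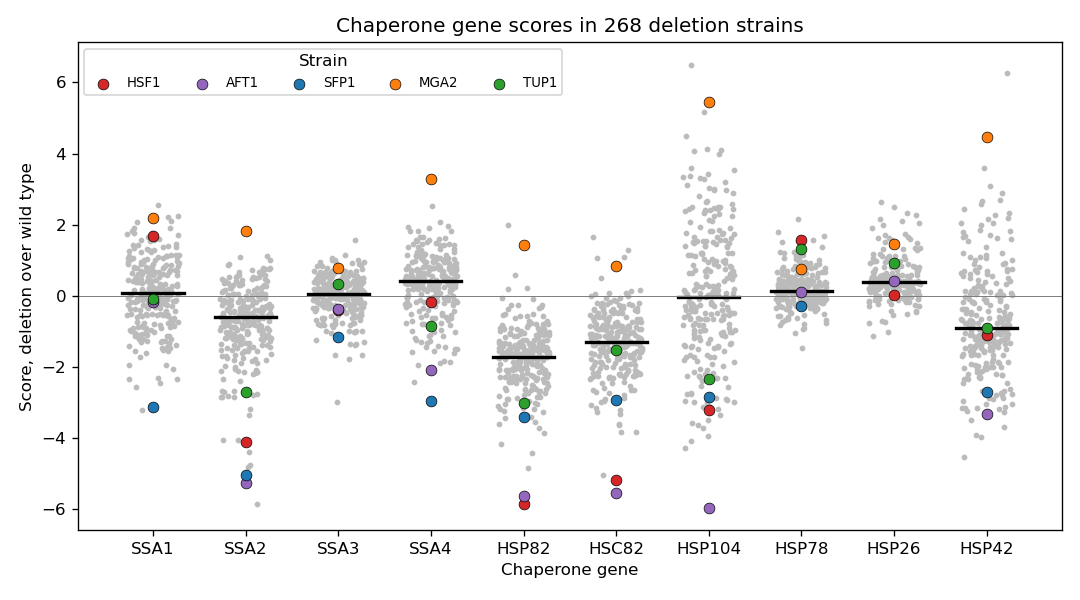
Score of each chaperone gene (vertical axis, deletion over wild type, no stated unit) in the deletion strains, 1 point per strain, with the median over strains as a bar and 5 strains in colour. HSP104 spreads from -5.96 to 6.50, HSP78 only from -1.46 to 2.17, and the medians of HSP82 and HSC82 lie at -1.71 and -1.30.

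HSP104 and HSP42 moved together across strains. Their scores correlated with r = 0.81 over 264 strains (Spearman's rho 0.80; r = 0.80 without the 2 strains farthest from the median of HSP104). Taking a shift of more than 1 from a gene's own median as high or low, both genes were high in 57 strains and both low in 35, and in 0 strains did they go opposite ways. Of the same strains, HSP104 was high in 83 and low in 70, and HSP42 was high in 70 and low in 53. The highest scores of both were in the column labelled MCM1, with 6.50 for HSP104 and 6.25 for HSP42, but in this column the MCM1 score itself was 5.03, the highest of its values, which goes against the label. The MGA2 strain came next for both genes. The RGM1 strain had 5.16 for HSP104 and 2.34 for HSP42, and the FLO8 strain 4.14 and 3.58 for the same genes. At the low end, the CAT8 strain had -4.27 for HSP104 and -3.23 for HSP42.

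The Hsp90 genes also moved together, with r = 0.78 over all strains (rho 0.73; r = 0.75 without the 2 farthest strains). Both were high in 10 strains, both low in 20, and opposite in 0. Singly, HSP82 was high in 22 and low in 34, and HSC82 was high in 27 and low in 32. HSP82 minus HSC82, with each gene centred on its own median, had an SD of 0.63 over strains. It was lowest in the SNF2 strain, at -1.83, with scores of -4.41 for HSP82 and -2.17 for HSC82. It was highest in the GCR1 strain, at 2.26, with -3.19 for HSP82 and -5.05 for HSC82.

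The Hsp70 genes were less alike. SSA1 correlated with SSA4 at r = 0.55 (rho 0.49, n = 264; r = 0.51 without the 2 farthest strains) and with SSA2 at r = 0.42 (rho 0.45, all strains; r = 0.36 without them), while SSA2 correlated with HSC82 at r = 0.58 (rho 0.45, all strains; r = 0.54 without them). SSA1 minus SSA2, centred in the same way, had an SD of 1.18, wider than that of the Hsp90 pair. It was highest in the HSF1 strain, at 5.10, ahead of RAP1 at 4.67 and AFT1 at 4.39. It was lowest in the MSN2 strain, at -2.75, where SSA1 was at -1.72 and SSA2 at 0.34. SSA1 and SSA2 went opposite ways by more than 1 in 6 strains.

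SSA3, HSP78 and HSP26 followed the other chaperone genes only loosely. Their strongest correlation with any other of the 10 was r = 0.32, between HSP78 and SSA4 (rho 0.33, n = 262). All these correlations are over strains measured once against the same kind of wild type RNA, and every pair of the 10 genes was compared.

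**Figure D2:**
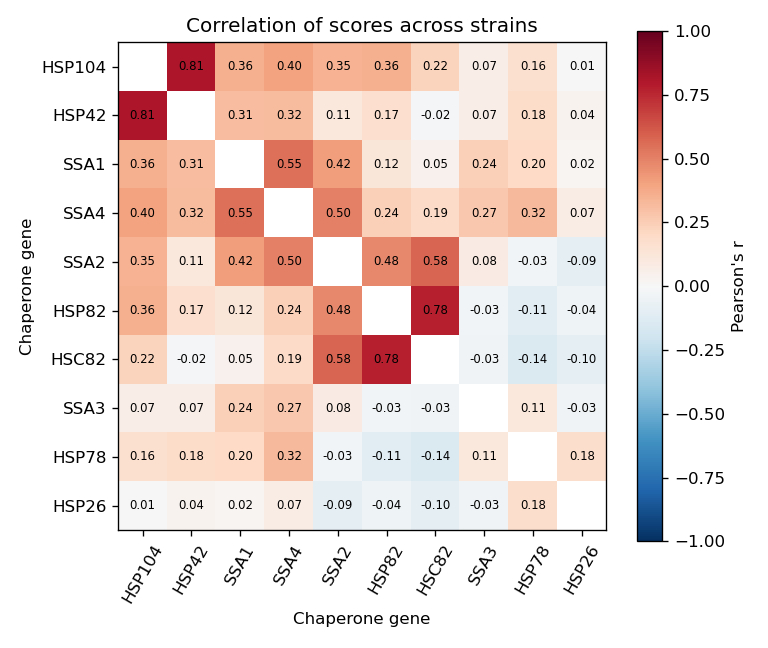
Pearson's r between the scores of every pair of chaperone genes across the deletion strains (both axes list the genes; red is positive, blue negative). HSP104 with HSP42 (0.81) and HSP82 with HSC82 (0.78) are the strongest pairs, and HSP26 stays between -0.10 and 0.18 with every other gene.

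**Figure D3:**
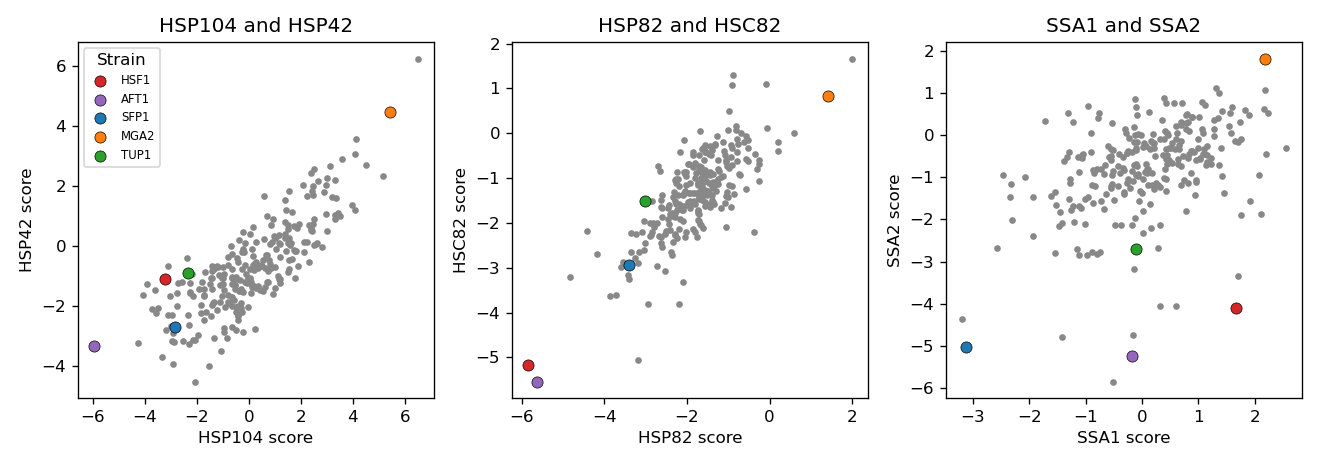
Scores of 3 pairs of chaperone genes (deletion over wild type, no stated unit), 1 point per strain, with 5 strains in colour. HSP104 and HSP42 lie along a line, HSP82 and HSC82 likewise, while SSA2 is low in several strains in which SSA1 is near or above 0, such as HSF1 (SSA1 1.68, SSA2 -4.11).

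Other genes shared these patterns. The genes most like HSP104 were TPS2, a trehalose synthesis gene (r = 0.85, n = 265), and AIM17 (r = 0.80), and AIM17 (r = 0.82, n = 267) and TPS2 (r = 0.79) were also the genes most like HSP42. HSP82 was most like YDJ1, which codes for an Hsp40 cochaperone (r = 0.68, all strains), and SSE1, for an Hsp110 exchange factor (r = 0.59). The same genes were most like HSC82, with r = 0.73 for YDJ1 and r = 0.69 for SSE1. SSA2 was most like SSC1, for the mitochondrial Hsp70 (r = 0.77, all strains), and PDC6, for a pyruvate decarboxylase (r = 0.73). For comparison, the 95th percentile of r over all other genes was 0.30 for HSP104, 0.30 for HSP42, 0.30 for HSP82, 0.33 for HSC82 and 0.40 for SSA2.

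By Pearson's r, the nearest gene of each remaining chaperone gene was less alike than the nearest genes above. For SSA1 this order did not hold by rank, with rho 0.67 for THI21, against rho 0.62 for HSP82 with YDJ1. SSA1 was most like THI21 (r = 0.62) and USA1 (r = 0.61), SSA3 like YBL044W (r = 0.54) and ASK10 (r = 0.49), and SSA4 like ERR2 (r = 0.50) and PTK1 (r = 0.48). HSP26 was most like YOR105W (r = 0.39) and EMI2 (r = 0.35), and HSP78 like SIZ1 (r = 0.38) and SME1 (r = 0.38). The median score over the 10 genes in each strain was most like RLM1, AIM17, YPK2, TSL1, SSE2, TPS2, HSP30, GYP7, IRC10 and THI21, with r between 0.59 and 0.53. TSL1 and TPS2 serve trehalose synthesis, SSE2 is the paralogue of SSE1, and HSP30 codes for a stress-induced membrane protein.

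The HSF1 column held the lowest HSP82 score of the whole table. In it HSP82 was at -5.85, HSC82 at -5.16, SSA2 at -4.11, HSP104 at -3.22 and HSP42 at -1.10, so 5 of the 10 chaperone genes were below -1, against 24.5% of all genes. SSA1 at 1.68 and HSP78 at 1.57 were above 1, 2 of 10 against 13.8% of all genes. SSA3 (-0.40), SSA4 (-0.17) and HSP26 (0.04) lay near 0. The column was thus split, with the Hsp90 genes, SSA2 and HSP104 low and SSA1 and HSP78 high.

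Set against its own median over strains, HSP82 differed by -4.14 in the HSF1 column, HSC82 by -3.86, SSA2 by -3.50 and HSP104 by -3.17, whereas HSP42 differed by -0.20. These 4 of 10 genes were below their median by more than 1, against 20.9% of all genes. Ranked from low to high over strains, the HSF1 column stood at place 1 for HSP82, 2 for HSC82, 7 for SSA2 and 10 for HSP104, so 4 of 10 chaperone genes had it among their lowest 10 strains, against 14.3% of all genes. For SSA1 it stood at place 252, near the high end.

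Partner lists went both ways in the same column, and are read against the same 24.5% of all genes below -1 and 13.8% above 1. All 6 genes for ribosome-bound chaperones were below -1 (median -2.05). Of 10 Hsp90 cochaperone genes 6 were below -1 and 2 above 1. Of 11 genes listed as Hsp40 and exchange factors, which also take in SGT2, HSP31 and HSP33, 6 were below and 1 above. Of 9 mitochondrial chaperone genes 3 were below and 1 above, and of 7 quality control genes 3 and 1. Of 9 endoplasmic reticulum chaperone genes 0 were below and 4 above, and of 18 general stress genes 2 were below and 12 above (median 1.62). Low examples, named after their values were seen, were the Hsp110 gene SSE1 at -5.09, the mitochondrial Hsp70 gene SSC1 at -4.59 and the Hsp40 genes SIS1 at -4.33 and YDJ1 at -3.17. With 1 sample there is no test.

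The HSF1 column shares features with others that bear on these values. Its values carry 6 significant digits, as in only 5 other columns (ABF1, GCR1, MCM1, RAP1 and REB1), and 4 of 6 a-cell markers were low in it. In the other 5 such columns SSA2 was also low, from -5.86 to -2.83, and HSC82 from -5.05 to -2.20. HSP82 there lay between -3.19 and -0.38, above the -5.85 of the HSF1 column. SSA1 lay between -1.11 and 0.61 there, below the 1.68 of the HSF1 column. How far the low SSA2 and HSC82 scores belong to this kind of column rather than to the deletion cannot be told apart.

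Among all strains, the lowest medians over the chaperone genes were in the columns of SFP1, AFT1, RPH1, SIN4 and HAP5, and the highest in those of MGA2, YPR196W, COM2, CST6 and CBF1. This order is by the score itself. With each gene set against its own median first, the highest medians were 2.28 for MGA2, 1.43 for RPN4, 1.21 for CAF4 and 1.19 for YPR196W, and the lowest were -2.46 for AFT1, -1.80 for SFP1, -1.77 for SIN4, -1.33 for HAP5 and -1.31 for SNF6. These strains were chosen for their values and are a description. In the SFP1 strain, which lacks an activator of ribosome biogenesis genes, SSA2 was at -5.02, HSP82 at -3.40, SSA1 at -3.12, SSA4 at -2.95, HSC82 at -2.93, HSP104 at -2.84, HSP42 at -2.69 and SSA3 at -1.16. Thus 8 of the 9 chaperone genes with a value were below -1, against 22% of all genes, and only HSP78 (-0.28) was not. The same 8 also lay more than 1 below their own medians. The median difference from the own median was -1.80 over the chaperone genes and 0.15 over all genes tested. The share of all genes low by this measure is not given here. Some genes are often below -1: HSP82 was in 84.3% of all columns, HSC82 in 63.8%, HSP42 in 47.9% and SSA2 in 34.7%. SSA4 had its lowest score of all strains in the SFP1 strain. All 6 genes for ribosome-bound chaperones were below -1 as well (median -3.33).

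The AFT1 strain, which lacks the iron regulon activator, held the lowest scores of all strains for HSP104 (-5.96) and HSC82 (-5.55). HSP82 was at -5.63, SSA2 at -5.26, HSP42 at -3.32 and SSA4 at -2.09, which put 6 of 10 below -1, against 25% of all genes. The same 6 lay more than 1 below their own medians, a measure for which the share of all genes is not given here. The median difference from the own median was -2.46 over the chaperone genes and -0.16 over all genes tested. SSA1 (-0.18), SSA3 (-0.36), HSP26 (0.43) and HSP78 (0.10) were near 0. Both Hsp90 genes, SSA2 and HSP104 were thus low in the AFT1 and in the HSF1 strain, but SSA1 was not high in the AFT1 strain, and HSP42 differed from its own median by -2.42 there and by -0.20 in the HSF1 strain. The AFT1 score itself was -4.49, the lowest of its values, and neither markers nor a chromosome set the column apart. In the fixed lists, 6 of 10 Hsp90 cochaperone genes, 7 of 9 mitochondrial and 6 of 9 endoplasmic reticulum chaperone genes were below -1 there. Against their own medians, 6 of 10, 5 of 9 and 3 of 9 were low by more than 1. All 6 ribosome-bound chaperone genes were low by both measures. Of 18 general stress genes 9 were below -1 and 1 above 1, whereas in the HSF1 column 2 were below and 12 above.

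In the HAP5 strain, which lacks a subunit of the CCAAT-binding factor, 7 of 10 chaperone genes were below -1, against 12.4% of all genes. HSP104 was at -2.92, HSP42 at -2.90, HSC82 at -2.73, SSA2 at -2.69 and HSP82 at -2.37, with SSA4 at -1.19 and SSA1 at -1.15. Against its own median HSP82 differed by only -0.66 there, and the other genes named were lower than theirs by more than 1. The median of such differences was -1.33 over the chaperone genes and -0.06 over all genes tested. In the SIN4 strain 7 of 10 lay more than 1 below their own median, against 20.5% of all genes, with SSA1 (-3.19) at its lowest of all strains and HSP42 (-0.85) near its median. In the RPH1 strain SSA1 was high, at 2.11, while HSP42 (-3.16), HSP82 (-3.04), HSP104 (-2.97) and HSC82 (-2.60) were low. There 5 of 9 were below -1 against 15.2% of all genes, and the same 5 lay more than 1 below their own medians. The median difference from the own median in the RPH1 strain was -1.28 over the chaperone genes and -0.03 over all genes tested. For the HAP5 and RPH1 strains the share of all genes low by that measure is not given here. The own gene was at -0.51 in the column labelled HAP5 (percentile 6.74 of its values) and at -0.41 in that labelled RPH1 (percentile 20.2).

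The MGA2 strain was the opposite extreme. MGA2 codes for a membrane-bound activator of the fatty acid desaturase gene OLE1. HSP104 was at 5.45, HSP42 at 4.46, SSA4 at 3.28, SSA1 at 2.19, SSA2 at 1.83, HSP26 at 1.45 and HSP82 at 1.42, so 7 of 10 were above 1, against 13.7% of all genes. HSC82 at 0.83, SSA3 at 0.79 and HSP78 at 0.76 were above 0 but below 1. SSA2 and SSA4 had their highest scores of all strains there. General stress genes were high too, 18 of 18 above 1 with a median of 5.07, and 7 of 9 endoplasmic reticulum chaperone genes were above 1. All 6 ribosome-bound chaperone genes were below -1, but only 3 of them lay more than 1 below their own median. The share of all genes below -1 in this column is not given here. The MGA2 score itself was -6.68, the lowest of its values.

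Such broad shifts were uncommon. At least 5 chaperone genes lay more than 1 below their own median in 9 columns, and at least 5 lay more than 1 above it in 8. At least 6 did so in 5 columns downward and 3 upward.

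**Figure D4:**
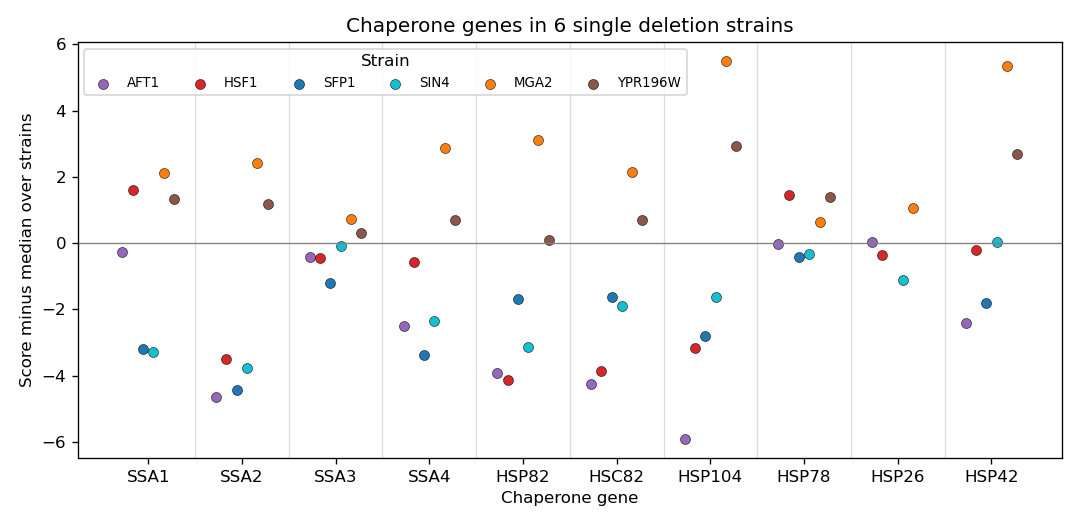
Score minus the gene's own median over strains (vertical axis, no stated unit) for each chaperone gene in 6 strains. AFT1, HSF1, SFP1 and SIN4 lie below 0 for HSP82, HSC82 and SSA2, MGA2 lies above 0 for every gene, and SSA1 separates HSF1 (1.59) from SFP1 (-3.20) and SIN4 (-3.28).

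In the MSN2 strain, which lacks a general stress factor, HSP104 was at -2.25, SSA1 at -1.72, HSP42 at -1.52 and HSP82 at -1.25, 4 of 10 below -1 against 9.59% of all genes. Read against their own medians, only HSP104 (-2.20) and SSA1 (-1.81) were low by more than 1, 2 of 10 against 3.24% of all genes. In the MSN4 strain 4 of 10 were below -1, against 9.41% of all genes, and SSA1 (-1.21) and SSA2 (-1.08) were low by more than 1 against their medians, 2 of 10 against 2.56%. SSA1 was the one chaperone gene low by that measure in both strains. Among general stress genes, 5 of 18 were below -1 in the MSN2 strain, against the 9.59% of all genes, and 5 of 18 in the MSN4 strain, against the same 9.41%. Read against their own medians, 5 of 18 were low by more than 1 in the MSN2 strain and 2 of 18 in the MSN4 strain, against the same 3.24% and 2.56%. Both strains had low scores for their own deleted gene, -6.04 for MSN2 and -3.01 for MSN4.

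As a set, the MSN2 and MSN4 strains passed for 0 of 9 chaperone genes and 0 of 5613 genes (limma, Benjamini-Hochberg, 0% of genes in either direction), with 1.55% of genes at an unadjusted p under 0.05. SSA1 averaged -1.42 ± 0.42 in these strains and 0.16 ± 0.99 in the other strains (SD, n = 2 for the set). Its difference was -1.58 ± 0.70 (SE; limma, unadjusted p = 0.0241) and did not pass after adjustment.

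Of the factors that share the DNA-binding domain type of Hsf1, the SKN7 strain had SSA1 lower by -1.30 and HSP42 by -1.12 against their medians, 2 of 10 against 3.88% of all genes, but the SKN7 score itself was -0.22 there, at percentile 65.5 of its values, which does not show loss of its transcript. In the SFL1, MGA1 and HMS2 strains 0 chaperone genes were below their median by more than 1, against 2.19%, 6.1% and 2.59% of all genes, and 1 was above it in each, against 3.83%, 5.76% and 9.92%. The own gene scored 0.30 in the column labelled SFL1, at percentile 47.9 of its values, -1.87 in that of MGA1 and -6.85 in that of HMS2, so the SFL1 column does not show loss of its transcript either.

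In the TUP1 strain, which lacks a general corepressor, HSP82 was at -3.02, SSA2 at -2.69, HSP104 at -2.33 and HSC82 at -1.51, 4 of 10 below -1 against 31.2% of all genes, and HSP78 at 1.33 was the 1 above 1, against 19.2%. These shares are near those of all genes. The corepressor strain had 11 of 18 general stress genes above 1.

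For the sets, each set mean was compared with the mean of the other strains in 1 fit over all genes. In the Mediator tail strains, which lack subunits of the part of Mediator that contacts activators, 3 of 9 chaperone genes fell (SSA1, SSA2 and HSP82) and 0 rose, against 2.87% of all genes lower and 2.33% higher. SSA1 was at -3.19 in SIN4, -1.93 in GAL11, -0.88 in PGD1 and -0.48 in NUT1, against a lowest, median and highest of -3.12, 0.17 and 2.55 in the other strains. All 4 tail strains were below the median of the others, with overlapping ranges, and the difference was -1.78 ± 0.49 (SE; limma, adjusted p = 0.0195).

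SSA2 was at -4.37 in SIN4, -2.39 in GAL11, -1.18 in PGD1 and -2.14 in NUT1, against -5.86, -0.54 and 1.83 in the other strains as lowest, median and highest. Again all 4 were below the median and within the range of the others, with a difference of -1.80 ± 0.55 (SE; limma, adjusted p = 0.0329). HSP82 was at -4.83, -1.74, -2.60 and -3.36 in the same order of tail strains, against -5.63, -1.70 and 1.42 in the others. Its difference was -1.37 ± 0.44 (SE; limma, adjusted p = 0.0434), with GAL11 just at the median of the others. The SD of HSP82 was 1.31 within the tail strains and 0.80 in the others, and the SE uses the shared spread.

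SSA4 (-1.28 ± 0.44, adjusted p = 0.0594) and HSC82 (-1.25 ± 0.46, adjusted p = 0.0816) did not pass by limma. The median difference over the 9 chaperone genes was -1.28, against -0.03 over all genes tested. The tail calls rest on the column labelled SIN4: without it 0 chaperone genes and 0 genes in all passed, and the differences were -1.25 for SSA1, -1.18 for SSA2 and -0.80 for HSP82. The SSA1 (-1.67) and SSA2 (-1.85) calls were also lost without GAL11 and the HSP82 call without NUT1 (-1.30). All 3 were lost after quantile normalization (-1.45, -1.35 and -0.53 for the same genes).

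The Mediator kinase strains passed for 0 of 9 chaperone genes, against 0.0356% of all genes in either direction (limma; 2.85% of genes had an unadjusted p under 0.05). The tail strains set directly against the kinase strains passed for 0 of 9, against 0.0178% of all genes (limma; 10.6% of genes at an unadjusted p under 0.05). SSA1 averaged -1.62 ± 1.21 in tail strains and -0.14 ± 0.45 in kinase strains (SD, n = 4 and 3), a difference of -1.48 ± 0.75 (SE; limma, adjusted p = 0.467), so a difference between the modules was not shown.

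In the SWI/SNF strains 3 of 9 chaperone genes fell (SSA1, SSA2 and SSA4) and 0 rose, but 21.5% of all genes were lower and 11.5% higher in this set, so the share of chaperone genes called was of that order. SSA1 was at -0.37 in SWI3, -1.01 in SNF5, -2.46 in SNF2, -1.42 in SNF6 and -1.12 in SNF11. All 5 were below the median of the other strains, 0.17, and the difference was -1.43 ± 0.44 (SE; limma, adjusted p = 0.00662). SSA2 was at -2.12, -2.11, -0.93, -4.80 and -0.86 in the same order, all below the median of the others, -0.54, with a difference of -1.45 ± 0.49 (SE; limma, adjusted p = 0.0138).

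SSA4 was at -1.10, -0.78, 0.02, -0.81 and -0.40 in the same order, against a median of 0.45 in the others. Its difference was -0.98 ± 0.39 (SE; limma, adjusted p = 0.0415). HSP104 was below the median of the others in all 5, from -2.38 to -0.98, but did not pass (-1.70 ± 0.86, SE; limma, adjusted p = 0.117). HSP82 split within the set, with -4.41 in SNF2 and -4.17 in SNF6, against -0.25 in SNF5. Quantile normalization left 0 of the 3 calls (SSA1 -0.99, SSA2 -0.49, SSA4 -0.88). The marker genes moved with this set; of its strains only SNF11 has none of them low, and with it alone the differences were -1.36 for SSA1, -0.22 for SSA2 and -0.83 for SSA4 with 0 calls. The part of the marker shift in these results was not tested. The SSA2 call also needs SNF6 (difference -0.79 without it), the SSA1 call needs SNF2 (-1.13), and SSA4 no longer passed without any 1 of SWI3 (-0.86), SNF5 (-0.94), SNF6 (-0.93) and SNF11 (-1.04), with a difference of nearly the same size.

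In the SAGA strains both Hsp90 genes were higher, 2 of 9, against 3.6% of all genes higher, and 0 of 9 were lower, against 7.23% of all genes. HSP82 was at -3.54 in ADA2, -1.42 in NGG1, -0.91 in SPT3, 0.59 in SPT20 and 1.99 in HFI1, against a lowest, median and highest of -5.63, -1.70 and 1.42 in the other strains. HFI1 lay above the highest of the others, ADA2 far below their median, and the difference was 1.10 ± 0.39 (SE; limma, adjusted p = 0.0488). HSC82 was at -2.87, -0.47, 1.07, 0.01 and 1.67 in the same order, against -5.55, -1.29 and 1.29 in the others, with a difference of 1.21 ± 0.41 (SE; limma, adjusted p = 0.0403). Within the SAGA strains the SD was 2.09 for HSP82 and 1.76 for HSC82, against 0.80 and 0.90 in the others. The shared spread behind both SEs is thus narrower than that of the set.

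Both calls were lost without any 1 of SPT3, SPT20 and HFI1, with unlike changes in size. The HSP82 difference was 1.17 without SPT3, 0.79 without SPT20 and 0.44 without HFI1, and that of HSC82 was 0.91, 1.17 and 0.76 in the same order. Without the columns with markers apart, which leaves ADA2 and NGG1, the differences turned to -0.74 for HSP82 and -0.35 for HSC82. They were also lost after quantile normalization, and without NGG1, SPT3 and SPT20, whose own gene scores are high (0.99 for HSP82 and 0.72 for HSC82). SSA1 (-0.79 ± 0.44, SE; limma, adjusted p = 0.263) was below the median of the others in all 5 SAGA strains and did not pass. Set directly against the SAGA strains, in contrasts added after the data had been seen, the Mediator tail strains were lower for 2 of 9 chaperone genes, both Hsp90 genes, against 1.98% of all genes, and the SWI/SNF strains for 1 of 9, HSP82, against 2.39% (limma). Both contrasts had 0 chaperone genes past the threshold after quantile normalization and without the columns with markers apart, where the HSP82 difference between SWI/SNF and SAGA strains turned to 0.80. Without HFI1 all 3 calls were lost, with differences of -1.81 for HSP82 and -2.01 for HSC82 in tail against SAGA strains and -1.19 for HSP82 in SWI/SNF against SAGA strains.

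**Figure D5:**
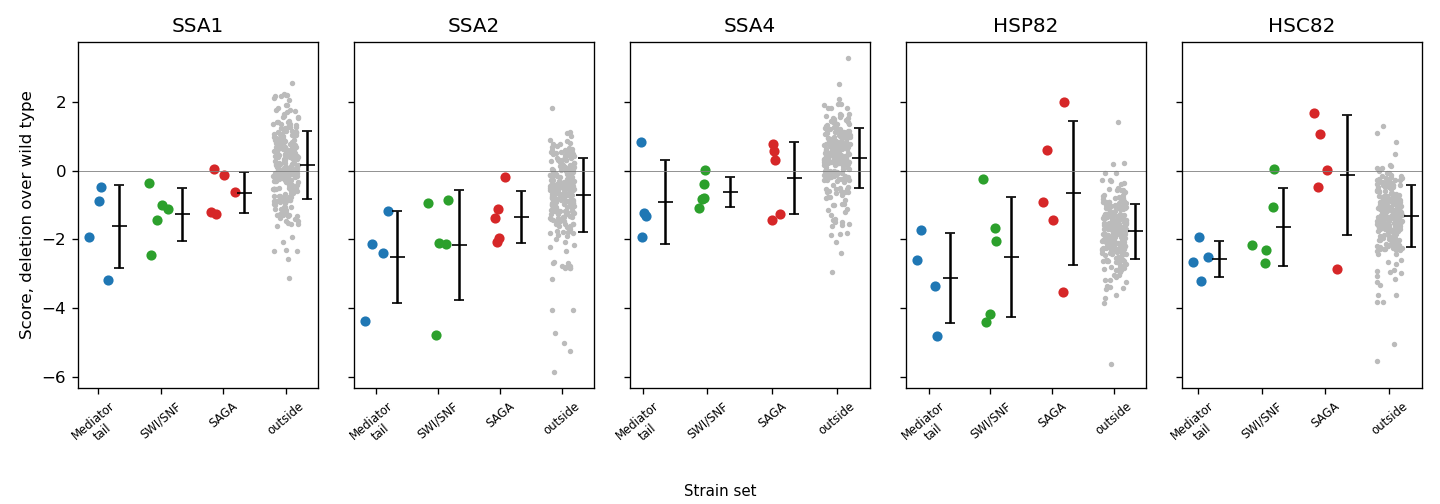
Scores (vertical axis, deletion over wild type, no stated unit) of 5 chaperone genes in the Mediator tail, SWI/SNF and SAGA strains and in the other strains, 1 point per strain, with mean and SD as bars. SSA1 and SSA2 lie low in the tail and SWI/SNF strains, and HSP82 spreads from -3.54 to 1.99 within the SAGA strains.

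The Rpd3 strains passed for 0 of 9 chaperone genes, against 0.427% of all genes in either direction (limma; 7.85% of genes at an unadjusted p under 0.05). HSP104 was at -3.47 in RPD3, -1.41 in SIN3, -3.09 in UME1, -1.96 in PHO23 and 0.03 in SDS3, a difference of -2.21 ± 0.86 (SE; limma, adjusted p = 0.351) against the other strains, whose median was 0.12. The Ccr4-Not strains passed for 0 of 9, against 0.0178% of all genes (limma; 2.21% of genes at an unadjusted p under 0.05). In its columns labelled POP2, MOT2 and NOT3 the own gene lay at percentiles 62.2, 56.2 and 53.9 of its values, so none of the 3 shows loss of its own transcript.

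Partners of the chaperones were counted in lists. Over all genes, most SWI/SNF and SAGA calls were lost after quantile normalization, and most SAGA calls also without the columns with markers apart. Leaving out those columns keeps only SNF11 of the SWI/SNF strains. Which of the partner genes named below keep their calls under these settings is not given here. In the SWI/SNF strains, where 21.5% of all genes fell and 11.5% rose, 4 of 6 ribosome-bound chaperone genes fell and 0 rose, with differences of -3.44 for SSB2, an Hsp70 gene, -2.43 for EGD2, of the nascent chain complex, -1.43 for SSZ1 and -1.56 for ZUO1, which form a ribosome-bound cochaperone pair. Of the 11 genes listed as Hsp40 and exchange factors, 3 fell, with -1.87 for SSE1, -0.93 for YDJ1 and -1.06 for FES1, and 1 rose, XDJ1 with 0.86. Of 10 Hsp90 cochaperone genes, STI1 (1.84), for the protein that bridges Hsp70 and Hsp90, and SGT1 (1.14) rose, and the phosphatase gene PPT1 (-2.83) and the kinase cochaperone gene CDC37 (-1.40) fell. The largest of these adjusted p values by limma was 0.0128, for FES1.

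Of 9 mitochondrial chaperone genes, 3 fell in the SWI/SNF strains, TIM44 (-1.63), SSC1 (-1.71) and SSQ1 (-0.59), and ZIM17 (1.04) rose. Of 9 endoplasmic reticulum chaperone genes, JEM1 (0.99) and SIL1 (0.94) rose and LHS1 (-1.02) fell, and of 7 quality control genes CUR1 (1.13) rose. Of 18 general stress genes, TMA10 (2.34) rose and HOR7 (-2.29) fell. The median difference was -1.50 for the ribosome-bound list, -0.25 for the Hsp90 cochaperones, 0.04 for the Hsp40 and exchange factor list and 0.07 for the general stress list, against -0.07 over all genes tested.

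In the Mediator tail strains, where 2.87% of all genes fell and 2.33% rose and 0 passed without SIN4, SSE1 (-1.81), SSC1 (-2.04) and PDI1, the protein disulphide isomerase gene (-1.82), fell, 1 each of their lists of 11, 9 and 9, and UBC4 (1.65), for a ubiquitin-conjugating enzyme, rose. The Hsp90 cochaperone, ribosome-bound and general stress lists had 0 calls there by limma. In the SAGA strains, where 3.6% of all genes rose and 7.23% fell, SGT2 (1.90), CPR6 (1.19), SGT1 (0.98) and HSP60 (1.70) rose, of which CPR6 and SGT1 are Hsp90 cochaperone genes. EGD2 (-1.79), SSB2 (-1.82), TIM44 (-0.94), HOR7 (-3.55), SPI1 (-2.93) and the HSF1 gene (-0.59, adjusted p = 0.0403 by limma) fell there. The Hsp90 cochaperone list had a median difference of 0.29 in the SAGA strains, against -0.05 over all genes.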

How the data were processed

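The authors deposited 1 table of processed values with 1 column per deletion. Its values are treated as a signed score, per the labels Cy5 deletion over Cy3 wild type; scale, normalization and build were not given in the sources used here. Planned as log ratios in the design, the values had signs and centred near 0, so limma was kept. Of 6419 features, 5655 matched the RefSeq gene table (R64) by systematic name, and 5615 with a value in at least 80% of columns were tested. A gene's score in its own deletion column was left out. One mean per group was fitted over all columns (limma 3.58.1, R 4.3.3), with Benjamini-Hochberg adjustment over all genes and a threshold of 0.05. The fit was also run on simulated data with independent columns and equal spread in all groups. The real columns share marker and chromosome shifts and the sets differ in spread, so nothing is concluded from that run. Single columns and correlations are descriptions.

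The chaperone genes, gene lists and sets were chosen with earlier results of these data known. All 10 chaperone genes are named; other genes are up to 4 per list with the lowest adjusted p and those with the highest correlation. A marker shift means at least 2 of MET17, STE3, MF(ALPHA)1 and MF(ALPHA)2, or 3 of 6 a-cell genes, under -3; a chromosome shift, over 0.5. Alternatives were quantile normalization, centring, other filters, an exact Mann-Whitney test, and leaving out single strains or columns apart. Array number limits precision. Of 35778 column pairs, 34 correlated below -0.3 over genes (lowest -0.42).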

Additional observations from a re-analysis of the deposited data

Results flagged for a closer look

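A pair of contrasts between sets was added after the data had been seen, and 3 differences passed in them by limma, each a test of the difference itself. The SDs given are those within each set, whereas the p-values use the spread shared by all groups. HSP82 averaged -2.51 ± 1.76 in the SWI/SNF strains and -0.66 ± 2.09 in the SAGA strains (SD, n = 5 each), a difference of -1.85 (limma, adjusted p = 0.0332), against 2.39% of all genes lower. HSP82 averaged -3.13 ± 1.31 in the Mediator tail strains and -0.66 ± 2.09 in the SAGA strains (SD, n = 4 and 5), a difference of -2.47 (limma, adjusted p = 0.00831), against 1.98% of all genes lower. HSC82 averaged -2.58 ± 0.53 in the tail strains and -0.12 ± 1.76 in the SAGA strains, a difference of -2.46 (limma, adjusted p = 0.0102). None of the 3 passed after quantile normalization, with differences of -0.41 for HSP82 in SWI/SNF against SAGA strains, -1.53 for HSP82 in tail against SAGA strains and -1.93 for HSC82 in tail against SAGA strains. Without the columns with markers apart they did not pass either, and the same differences were 0.80, which turned the direction, -0.65 and -0.90. Without the columns with a shifted chromosome the SWI/SNF difference was -1.14 and did not pass, and without those whose own gene scored high, an alternative added after the data had been seen, the differences were -1.74, -2.36 and -1.97 with 0 of the 3 passing. Leaving out single strains gave -2.57 to -1.19, -3.19 to -1.81 and -3.15 to -2.01, and without HFI1 0 of the 3 passed. In each case the ADA2 strain, at -3.54 for HSP82 and -2.87 for HSC82, lay with the lower set. Of 40 combinations of a chaperone gene and a set of 4 or 5 strains, 0 had a strain set apart from the rest of its set by Dixon's test. At these set sizes the test has little power, so nothing is concluded from it.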

How the results depend on the processing

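No paired analysis was possible because each deletion had 1 column and the replicate numbers only name strains within a set. Values below are the number of chaperone genes past the threshold and the percent of all genes past it; 5.2% passed in either direction for the Mediator tail, 10.8% for SAGA and 33% for SWI/SNF as reported. Quantile normalization left 0 chaperone genes and 0.16% of genes for the tail, 0 and 0.926% for SAGA, 0 and 9.58% for SWI/SNF, 0 and 0.0534% for SWI/SNF against SAGA, 0 and 0.427% for tail against SAGA, and 0.0534% of genes for Ccr4-Not, 0.0534% for MSN2 and MSN4, 0% for Rpd3 and 0% for tail against kinase. The exact Mann-Whitney test left 0 and 0% for the tail, 0 and 0.178% for SAGA, 21% of genes for SWI/SNF, and 0% for Ccr4-Not, the kinase strains and Rpd3. Genes with a value in every column gave 9.04% for the tail, 5.08% for SWI/SNF against SAGA, 8.59% for tail against SAGA and 0% for Ccr4-Not, the kinase strains and tail against kinase, and column centring gave 0.0534% for the last.

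Without columns with markers apart the tail had 9.05% of genes, SAGA 0 chaperone genes and 0.0178%, SWI/SNF 0 and 0.412%, SWI/SNF against SAGA 0 and 0.0359%, tail against SAGA 0 and 0.0178%, the kinase strains 0.0178%, Rpd3 0% and tail against kinase 0.125%. There the difference was -0.74 for HSP82 and -0.35 for HSC82 in SAGA, and 0.80 for HSP82 in SWI/SNF against SAGA. Without columns with a shifted chromosome SAGA had 0 and 2.17%, SWI/SNF 1 (SSA1) and 16.3%, SWI/SNF against SAGA 0 and 0.356%, tail against SAGA 1.09%, the kinase strains 0.0535%, Rpd3 0.0178% and tail against kinase 0.0356%. Without columns whose own gene scored high, an alternative chosen after seeing the data, SAGA had 0 and 0.588%, SWI/SNF against SAGA 0, tail against SAGA 0 and 0.392%, the kinase strains 0.16%, Rpd3 0.855% and tail against kinase 0.0712%.

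Leaving out single strains gave 0 to 4 chaperone genes and 0% to 8.48% of genes for the tail, 0 to 2 and 0.98% to 16.9% for SAGA, 1 to 3 and 24% to 38.2% for SWI/SNF, 0 to 2 and 0.89% to 12.3% for SWI/SNF against SAGA and 0 to 2 and 0.481% to 10.7% for tail against SAGA. Percents ran from 0% to 0.0356% for Ccr4-Not, 0% to 0.0731% for MSN2 and MSN4, 0.0534% to 0.142% for the kinase strains, 0.0178% to 1.07% for Rpd3 and 0% to 0.374% for tail against kinase. In the TUP1 column 0 chaperone genes were above 1 after quantile normalization and 2 after centring. Fewer columns are part of each such fit; the cause of the shifts was otherwise not tested.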
